A study of Mus musculus with 8 samples.

Results

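The 10 genes described here encode the proteins with which gut epithelium takes up, exports and senses bile acids: Slc10a2, Fabp6, Slc51a, Slc51b, Abcc3, Abcc2, Nr1h4, Nr0b2, Fgf15 and Gpbar1. They were chosen by name out of 54141 Ensembl gene IDs in the deposited table, and all 10 were found. Their levels in these same libraries, with Slc10a2 and Slc51a high in Degs2_KO replicate 3 and WT replicate 1, were known when they were chosen, so those levels are given as description and carry no test. Of the 10 genes, 7 passed the filter on low counts and were tested; Fgf15, Nr0b2 and Gpbar1 did not pass it.

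RNA-seq libraries came from epithelial cells that EDTA had released from the distal colon of mice with a homozygous Degs2 mutation (Degs2_KO, 4 libraries) and of wild-type mice (WT, 4 libraries), all on the c57bl6/j background and with no treatment named. DEGS2 is a sphingolipid desaturase and hydroxylase; the sources used here do not give the kind of mutation or the age and sex of the mice. The comparison between genotypes asks how loss of this enzyme changes the transcriptome of these cells. The labels do not say that each library came from a mouse of its own, so the spread between libraries may in part be technical.

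Bile acids are made from cholesterol in the liver, reach the gut with bile, and are taken back mainly in the terminal ileum. There the apical sodium-dependent transporter (Slc10a2) brings them into the enterocyte, the ileal bile acid binding protein (Fabp6) carries them in the cytosol, and a heteromer of OST-alpha (Slc51a) and OST-beta (Slc51b) exports them across the basolateral membrane. Inside the cell they bind the farnesoid X receptor FXR (Nr1h4), which switches on Fgf15, Nr0b2, Fabp6 and the Slc51 pair; FGF15 then signals to the liver to lower bile acid synthesis. The colon meets the bile acids that escape the ileum.

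The promoters of 4 of the genes are shown because their levels varied most between libraries (Slc10a2, Slc51a, Abcc2) or because the gene is a classic FXR target (Fabp6). Each sequence covers 250 bases before and 50 bases after the transcription start in RefSeq (build GRCm38.p6), read 5′ to 3′ on the strand of the gene. They lie at chr8:5105238-5105537 (minus strand, Slc10a2), chr19:43782058-43782357 (plus strand, Abcc2), chr11:43601513-43601812 (minus strand, Fabp6) and chr16:32487830-32488129 (minus strand, Slc51a). Capitals mark TTAA and ATTAA with 2 free bases between them in Slc10a2 and Abcc2, TTTATTG on either strand in Slc10a2, and AGGTNA and TNACCT with 1 base between them in Fabp6. The Slc51a window holds none of these.
Slc10a2: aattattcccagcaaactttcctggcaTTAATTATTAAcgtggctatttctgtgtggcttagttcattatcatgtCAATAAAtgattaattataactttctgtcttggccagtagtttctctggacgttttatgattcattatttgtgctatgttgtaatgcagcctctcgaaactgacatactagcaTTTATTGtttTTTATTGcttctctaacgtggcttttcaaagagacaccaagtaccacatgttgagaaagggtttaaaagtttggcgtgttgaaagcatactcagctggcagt
Abcc2: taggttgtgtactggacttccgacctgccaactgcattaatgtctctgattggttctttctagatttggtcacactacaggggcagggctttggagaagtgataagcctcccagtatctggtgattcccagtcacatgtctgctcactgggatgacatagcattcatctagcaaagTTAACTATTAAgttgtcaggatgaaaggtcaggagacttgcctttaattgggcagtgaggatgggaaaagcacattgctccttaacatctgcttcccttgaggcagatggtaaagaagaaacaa
Fabp6: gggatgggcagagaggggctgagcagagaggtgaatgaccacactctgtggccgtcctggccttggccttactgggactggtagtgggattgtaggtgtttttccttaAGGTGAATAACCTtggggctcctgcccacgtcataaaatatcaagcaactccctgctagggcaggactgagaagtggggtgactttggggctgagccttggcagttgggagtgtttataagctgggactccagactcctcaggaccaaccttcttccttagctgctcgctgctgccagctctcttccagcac
Slc51a: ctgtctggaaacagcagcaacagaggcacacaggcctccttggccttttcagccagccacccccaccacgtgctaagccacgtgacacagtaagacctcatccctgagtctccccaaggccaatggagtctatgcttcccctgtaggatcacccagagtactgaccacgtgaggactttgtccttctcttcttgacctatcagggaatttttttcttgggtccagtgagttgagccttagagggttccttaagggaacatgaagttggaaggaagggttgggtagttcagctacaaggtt

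TTAA and ATTAA around 2 bases are a loose form of the palindrome bound by the HNF1 factors, TTTATTG is a core bound by CDX factors, and AGGTNA and TNACCT around 1 base are a loose form of the inverted repeat bound by FXR. The letters were chosen after these windows had been read, and both strands were searched. The HNF1 form occurred in 0.502% of 32851 RefSeq promoter windows of this length, 223 bases before the start of Slc10a2 (as TTAATTATTAA) and 74 bases before that of Abcc2 (as TTAACTATTAA). TTTATTG was in 4.60% of windows and matched 3 times in that of Slc10a2. The loose inverted repeat was in 0.0213% of windows, and in Fabp6 it lay 142 bases before the start as AGGTGAATAACCT. The strict inverted repeat, AGGTCA and TGACCT around 1 base, in 0.00913% of windows, was in no window of the 8 genes of the set that had an entry. The single hexamer AGGTCA, in 16.3% of windows, matched in those of Slc51a, Slc51b, Nr1h4 and Abcc2, and the GATA core AGATAA, in 11.2%, in that of Nr1h4. These are matches of letters in short windows.

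Degs2 itself, the check of the labels, was lower in every Degs2_KO library (47.7 to 65.9 CPM) than in every WT library (106 to 151 CPM). It overlaps Evl and Gm33467 on the other strand, in exons too, and no source used here says if reads were counted by strand. How much of the count left in Degs2_KO is Degs2 message was not tested. Counts per 1e6 (CPM) are here estimated fragment counts scaled to TMM-normalized library totals. Scaled totals were between 41622927 and 44606092 per library, which correspond to 43.2 to 46.2 M reads in Degs2_KO and 32.8 to 49.8 M reads in WT (M, 1e6), lowest in WT replicate 1. Degs2_KO replicate 3 and WT replicate 1 stood apart from the other 6 libraries on the first principal component, which held 50.3% of the variance (59.1 and 53.9, the others between -43 and 1.1). The 15 epithelial and absorptive colonocyte markers (Epcam, Cdh1, Krt8, Car1 and others) summed to 21700 to 31000 CPM in Degs2_KO and 20800 to 29100 CPM in WT. The 8 hepatocyte markers summed to at most 25.4 CPM in Degs2_KO and 33.8 CPM in WT, with Fga, Fgb and Cyp7a1 at 0 in every library.

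Slc10a2, the gene of the apical uptake transporter (ENSMUSG00000023073, chromosome 8, 5083219 to 5105351, minus strand, GRCm38), had the widest range of the set. Its level was 3.46, 3.46, 70.3 and 2.1 CPM in Degs2_KO replicates 1 to 4, against 101, 3.32, 4.89 and 11.7 CPM in WT replicates 1 to 4. A single library in each genotype was high, the third highest was WT replicate 4, and the genotypes overlapped. From the lowest to the highest library the level spanned 48.0-fold. Degs2_KO replicate 3 was 20.3-fold above the next Degs2_KO library and WT replicate 1 was 8.64-fold above the next WT library. Those high values rest on 3043 and 3195 reads, and the lowest, in Degs2_KO replicate 4, on 91. In RNA pooled from many released cells, more cells that express a gene and more RNA per cell cannot be told apart.

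The Slc10a2 comparison between genotypes was dominated by these libraries. The mean was 19.8 ± 33.7 CPM in Degs2_KO and 30.2 ± 47.3 CPM in WT (SD, n = 4 each), so that the SD exceeded the mean in both. The log2 fold change was -0.61 ± 1.38 (SE; 95% interval -3.75 to 2.53; edgeR's quasi-likelihood test, adjusted p = 1), and 0.0992% of all tested genes had a larger standard error. Without both high libraries the level was 3.01 ± 0.785 CPM in Degs2_KO and 6.63 ± 4.45 CPM in WT (SD, n = 3 each), with WT replicate 4 the highest. The log2 fold change was then -1.13 ± 0.46 (SE). Those libraries were left out for their Slc10a2 levels, so this value is description and carries no test. Leaving out WT replicate 1 alone turned it to 1.6, and leaving out Degs2_KO replicate 3 alone gave -3.32.

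Fabp6, the gene of the cytosolic bile acid carrier (ENSMUSG00000020405, chromosome 11, 43596049 to 43601540, minus strand), was present at a low level throughout. It stood at 1.26, 1.72, 4.62 and 1.48 CPM in Degs2_KO replicates 1 to 4 and at 4.33, 1.70, 1.22 and 2.21 CPM in WT replicates 1 to 4. The libraries high for Slc10a2 were again the highest and WT replicate 4 was the third, over a span of 3.78-fold. The log2 fold change between genotypes was -0.06 ± 0.51 (95% interval -1.22 to 1.11).

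Slc51a, the alpha subunit gene of the basolateral exporter (ENSMUSG00000035699, chromosome 16, 32474504 to 32487879, minus strand), followed Slc10a2 most closely among the set. It was at 7.21, 6.72, 57.7 and 5.75 CPM in Degs2_KO replicates 1 to 4, against 59.7, 5.5, 5.55 and 12.7 CPM in WT replicates 1 to 4. The same pair of libraries was high, at nearly equal levels, WT replicate 4 was the third and the other 5 lay between 5.5 and 7.21 CPM. Between genotypes its log2 fold change was -0.11 ± 1.0 (95% interval -2.38 to 2.16), turning to 1.3 without WT replicate 1 and to -1.67 without Degs2_KO replicate 3. Exons of Slc51a overlap exons of Pcyt1a on the other strand, and no source used here says if reads were counted by strand. Pcyt1a, a phosphatidylcholine synthesis gene, varied little, at 65.7 to 76.1 CPM in Degs2_KO and 61.0 to 77.9 CPM in WT.

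Slc51b, the beta subunit gene (ENSMUSG00000053862, chromosome 9, 65412714 to 65422955, minus strand), varied less. Its level was 24.8, 20.3, 46.7 and 21 CPM in Degs2_KO replicates 1 to 4 and 36.6, 17.7, 14.7 and 31.4 CPM in WT replicates 1 to 4. Degs2_KO replicate 3, WT replicate 1 and WT replicate 4 were the 3 highest, in that order, over a span of 3.18-fold. Its log2 fold change was 0.17 ± 0.36 (95% interval -0.65 to 0.98), the only positive one of the 7. Rasl12, which overlaps Slc51b on the other strand, was at 1.08 to 2.70 CPM in Degs2_KO and 1.09 to 3.01 CPM in WT.

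**Figure D1:**
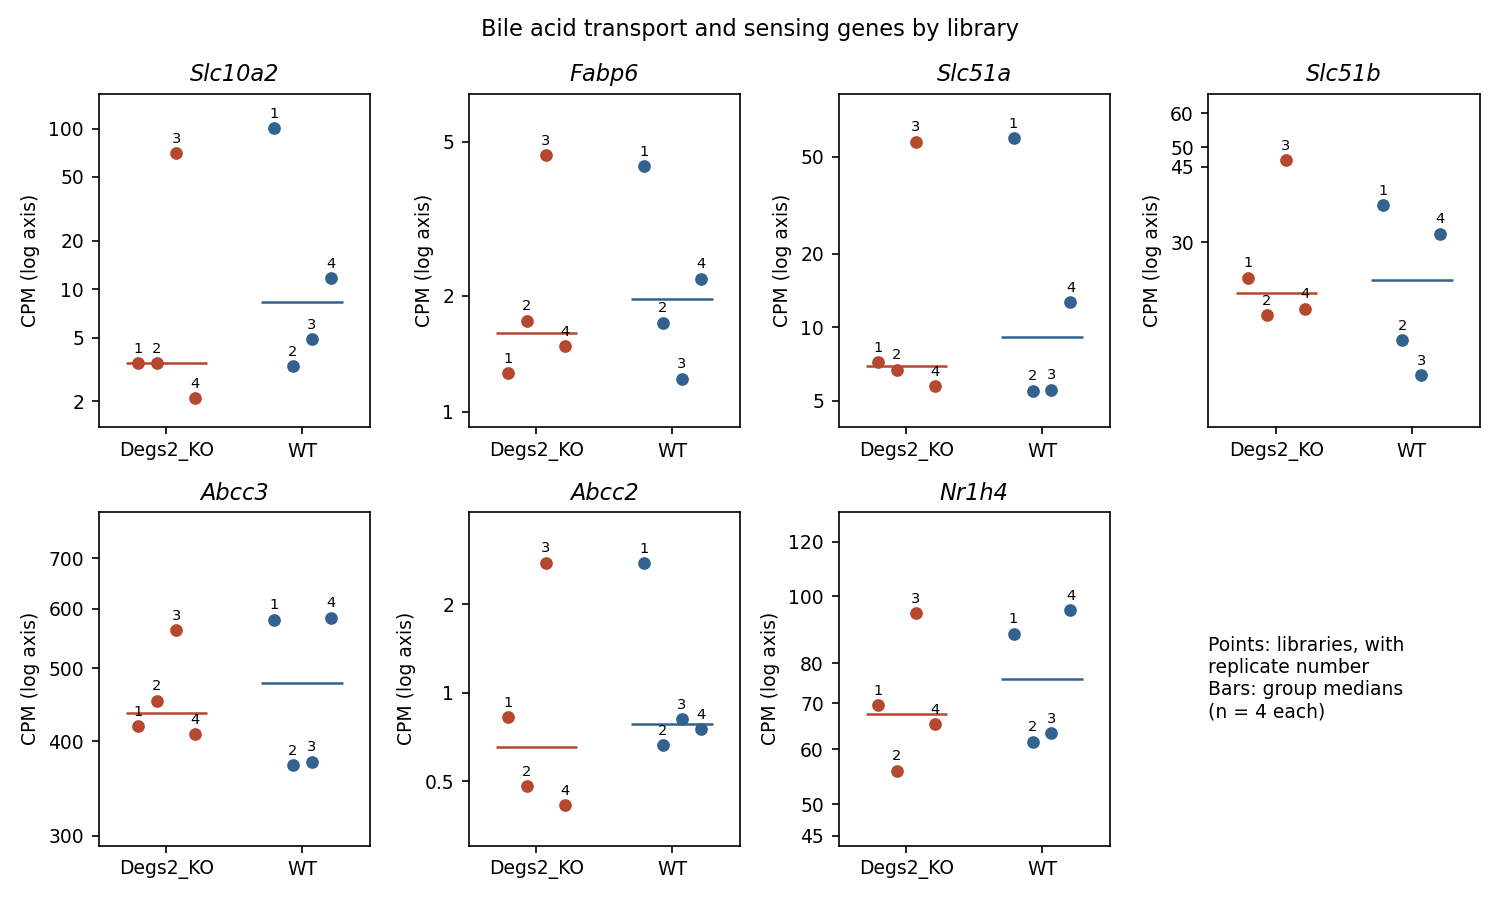
Level of the 7 tested genes in each library, in CPM on a log axis, with Degs2_KO in red and WT in blue; digits are replicate numbers and bars are group medians (n = 4 each). Slc10a2 spans 2.1 to 101 CPM and Slc51a 5.5 to 59.7 CPM, with Degs2_KO replicate 3 and WT replicate 1 on top, whereas Abcc3 stays between 372 and 584 CPM.

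Because the exporter needs both subunits, their levels were set side by side per kilobase of annotated exon. Slc51a was at 2.26, 2.1, 18.0 and 1.80 CPM per kb in Degs2_KO replicates 1 to 4 and at 18.7, 1.72, 1.73 and 3.98 CPM per kb in WT replicates 1 to 4. Slc51b was at 34.9, 28.7, 65.8 and 29.7 CPM per kb in Degs2_KO and at 51.7, 25, 20.7 and 44.3 CPM per kb in WT. The alpha subunit gene was the lower of the pair in all 8 libraries. It reached 27.4% of the beta level in Degs2_KO replicate 3 and 36.1% in WT replicate 1, and between 6.06% and 8.98% in the other 6 libraries. The ratio of alpha to beta message was thus higher in these libraries, although beta remained the more abundant. The annotated exons of Slc51b span 709 bp, so its level per kb depends strongly on the gene model.

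**Figure D2:**
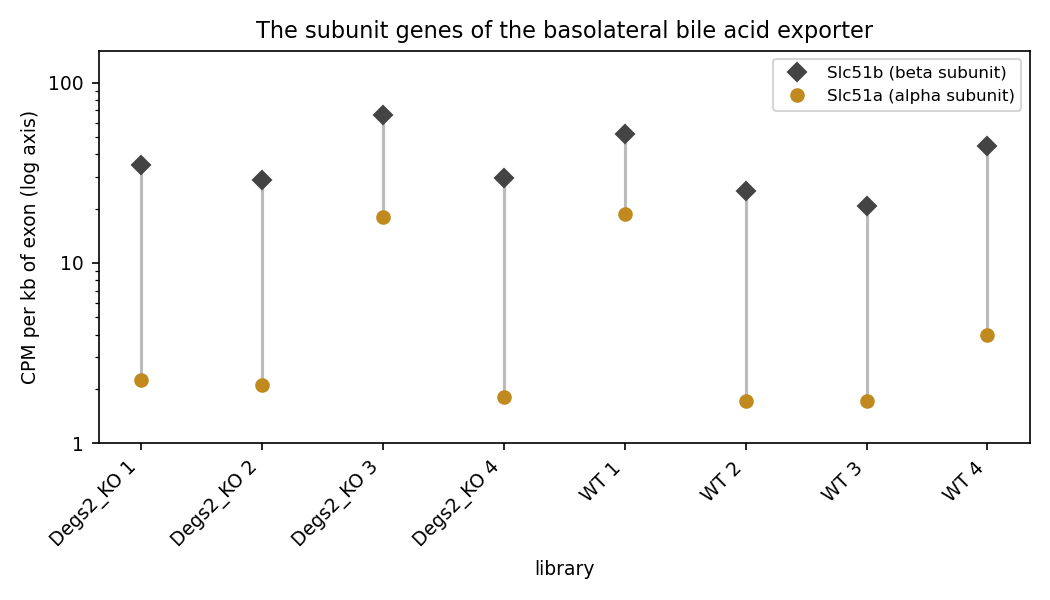
Level of Slc51b (diamonds) and Slc51a (circles) in each library, in CPM per kb of exon on a log axis; grey lines join the values of one library. The gap is narrowest in Degs2_KO replicate 3 and WT replicate 1, where Slc51a is at 18.0 and 18.7 CPM per kb.

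Abcc3, the gene of the basolateral organic anion exporter MRP3 (ENSMUSG00000020865, chromosome 11, 94343295 to 94392997, minus strand), had the highest level per kb of the set. It averaged 80.9 ± 12.3 CPM per kb in Degs2_KO and 83.9 ± 21.1 CPM per kb in WT (SD, n = 4 each). In CPM its levels were 419, 453, 562 and 409 in Degs2_KO replicates 1 to 4 and 580, 372, 376 and 584 in WT replicates 1 to 4. WT replicate 4, WT replicate 1 and Degs2_KO replicate 3 were the highest, in that order, but the whole span was only 1.57-fold. Abcc3 had a log2 fold change of -0.05 ± 0.19 with a 95% interval of -0.48 to 0.37.

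Abcc2, the gene of the apical exporter MRP2 (ENSMUSG00000025194, chromosome 19, 43782192 to 43840740, plus strand), was near the lower limit of testing. It was at 0.825, 0.482, 2.77 and 0.416 CPM in Degs2_KO replicates 1 to 4 and at 2.75, 0.664, 0.815 and 0.752 CPM in WT replicates 1 to 4. Degs2_KO replicate 3 and WT replicate 1 were the highest with 120 and 87 reads, and WT replicate 4 lay among the rest with 30 reads. Abcc2 had a log2 fold change of -0.15 ± 0.70 (95% interval -1.74 to 1.44).

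Nr1h4, the gene of the bile acid receptor FXR (ENSMUSG00000047638, chromosome 10, 89454234 to 89533585, minus strand), was present in all libraries within a narrow range. Its level was 69.6, 55.9, 94.5 and 65.3 CPM in Degs2_KO replicates 1 to 4, against 88.3, 61.6, 63.4 and 95.5 CPM in WT replicates 1 to 4. The 3 highest libraries were WT replicate 4, Degs2_KO replicate 3 and WT replicate 1, over a span of 1.71-fold. The log2 fold change of -0.11 ± 0.20 had a 95% interval of -0.56 to 0.33.

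FXR's targets Fgf15 and Nr0b2 were barely detected beside this receptor level. Fgf15, the hormone gene of the ileum (ENSMUSG00000031073, chromosome 7), had 2, 0, 0 and 0 reads in Degs2_KO replicates 1 to 4 and 1, 0, 0 and 4 reads in WT replicates 1 to 4. Nr0b2, the gene of the repressor SHP (ENSMUSG00000037583, chromosome 4), had 1, 0, 2 and 1 reads in Degs2_KO and 0, 2, 1 and 1 reads in WT. Gpbar1, the gene of the membrane bile acid receptor TGR5 (ENSMUSG00000064272, chromosome 1), had 5, 1, 2 and 5 reads in Degs2_KO and 1, 5, 3 and 0 reads in WT. A library with 0 reads allows a level of up to 3 reads, which is 0.0687 to 0.0693 CPM in Degs2_KO and 0.0622 to 0.0948 CPM in WT (counting error only). Fgf15 stayed under that limit in Degs2_KO replicate 3, where Slc10a2 was at 70.3 CPM. No difference between genotypes was detectable for these 3 genes at this depth.

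Per kb of exon, the order of the tested genes was the same in both genotypes at its ends and mixed in its middle. Abcc3 came first, followed by Slc51b (39.8 ± 17.6 CPM per kb in Degs2_KO and 35.4 ± 15.0 in WT) and Nr1h4 (31.0 ± 7.17 in Degs2_KO and 33.5 ± 7.48 in WT), whose spreads overlapped (SD, n = 4 each). Slc51a, Slc10a2 and Fabp6 formed a lower tier with means between 4.74 and 7.28 CPM per kb and did not differ beyond their spread, and Abcc2 came last at 0.132 ± 0.131 in Degs2_KO and 0.146 ± 0.118 in WT. Within that tier the order changed with the library. Slc10a2 stood above Fabp6 in Degs2_KO replicate 3 (16.9 against 9.65 CPM per kb) and WT replicate 1 (24.3 against 9.04). Fabp6 stood above Slc10a2 in the other 6 libraries, at 2.55 to 4.61 CPM per kb, where Slc10a2 was at 0.506 to 2.81.

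None of the 7 tested genes passed the threshold between genotypes. edgeR's quasi-likelihood test called 0 of 16132 genes after Benjamini-Hochberg adjustment (0%), with 183 genes (1.13%) at an unadjusted p under 0.05, where the 7 contributed 0. By this test Degs2 itself, whose groups did not overlap, had a log2 fold change of -1.07 ± 0.15 (unadjusted p = 4.94e-05, adjusted p = 0.796). The test thus did not call the mutated gene either. DESeq2 called 2 genes, with 274 under the unadjusted threshold, and limma-trend called 0, with 185 under it; none of the 7 was called; DESeq2 gave no adjusted p for Slc10a2 and Slc51a. Groups that did not overlap were found for 170 genes (1.05%) and for 0 of the 7. Of the 7, 1 was higher and 6 were lower in Degs2_KO, with a median log2 fold change of -0.11 beside -0.007 over all tested genes. These directions come from the same libraries, so they are not independent and were not tested. The unadjusted p-values lay between 0.573 and 0.916. The intervals of Abcc3 and Nr1h4 stayed within a log2 change of 0.56 either way, whereas those of Slc10a2 and Slc51a reached past 2 in both directions, so large changes of Slc10a2 and Slc51a were not detectable.

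**Figure D3:**
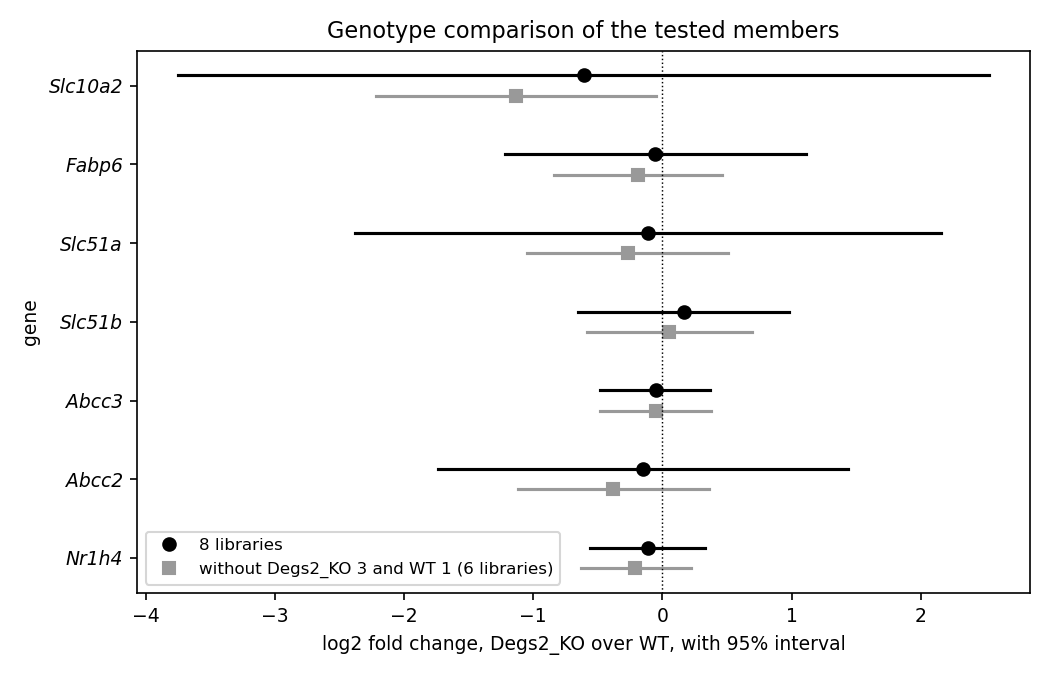
Log2 fold change of Degs2_KO over WT with its 95% interval for the 7 tested genes, from all 8 libraries (black circles) and from the 6 libraries without Degs2_KO replicate 3 and WT replicate 1 (grey squares). Every black interval includes 0, and that of Slc10a2 runs from -3.75 to 2.53. The libraries left out were picked for their Slc10a2 and Slc51a levels, so the grey intervals are description only.

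All 7 tested genes had Degs2_KO replicate 3 and WT replicate 1 among their 3 highest libraries, and 6 had WT replicate 4 there, the exception being Abcc2. The share of all tested genes with this order was not counted, so the order cannot be called particular to the set. Degs2_KO replicate 3 and WT replicate 1 both lay above the other 6 for 5 of the 7, as they did for 2870 of 16132 tested genes (17.8%). The lower of these libraries was 6.02-fold above the highest of the other 6 for Slc10a2, 4.53-fold for Slc51a, 3.33-fold for Abcc2, 1.96-fold for Fabp6 and 1.17-fold for Slc51b. For Nr1h4 and Abcc3 this ratio was 0.925 and 0.963, with WT replicate 4 on top. A ratio of at least 2 held for 3 of the 7 and for 165 of all tested genes (1.02%), and one of at least 4 for 2 of the 7 and for 23 genes (0.143%). Genes that the filter on low counts removed, some of them high in these libraries only, are not in these shares. The genes had been chosen with this pattern known, so these shares describe it and test nothing.

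**Figure D4:**
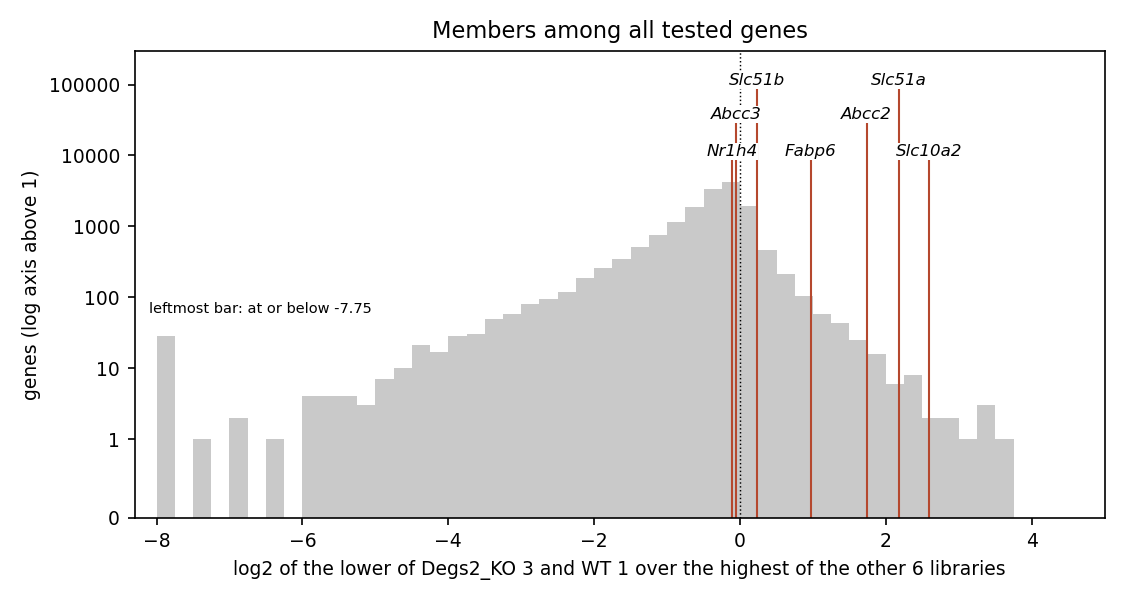
Number of tested genes (log axis above 1) by the log2 ratio of the lower of Degs2_KO replicate 3 and WT replicate 1 to the highest of the other 6 libraries, with the 7 tested bile acid genes marked in red. Slc10a2, Slc51a and Abcc2 lie in the right tail at ratios of 6.02, 4.53 and 3.33.

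Genes that mark position along the gut differed between the same libraries. Hoxd13, a hindgut patterning gene, was at 60.7, 47.7, 0.300 and 42.5 CPM in Degs2_KO replicates 1 to 4 and at 0.695, 84.4, 85.3 and 38.8 CPM in WT replicates 1 to 4. Hoxb13, another gene of the distal gut, was at 245, 248, 91.0 and 249 CPM in Degs2_KO replicates 1 to 4 and at 96.6, 312, 304 and 234 CPM in WT replicates 1 to 4. Of 19 tested genes listed as higher in distal colon, 11 were lower in both libraries than in the other 6, beside 16.6% of all genes; their summed level was 3130 to 4600 CPM in Degs2_KO and 3370 to 4630 CPM in WT. Aqp4, a water channel, was lowest in these libraries too, at 942 CPM in Degs2_KO replicate 3 (1310 to 1740 CPM in the other Degs2_KO libraries) and 845 CPM in WT replicate 1 (1150 to 1380 CPM in the other WT libraries). Car4, a carbonic anhydrase, was at 456 and 431 CPM in the same libraries and at 402 to 699 CPM in the others, and Sprr2a3 at 322 and 501 CPM and at 398 to 546 CPM.

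Genes listed as higher in caecum and proximal colon summed to 3260 to 6100 CPM in Degs2_KO and 3290 to 6100 CPM in WT, with Degs2_KO replicate 3 and WT replicate 1 at the upper ends. Of the 13 tested, 5 were higher and 5 lower in both libraries than in the other 6, beside 17.8% and 16.6% of all tested genes. A ratio of at least 2 held for 3 of the 13, beside 1.02% of all tested genes. Cyp2c55, a cytochrome P450 gene, was at 725, 558, 2380 and 166 CPM in Degs2_KO replicates 1 to 4 and at 1970, 254, 626 and 730 CPM in WT replicates 1 to 4. Slc26a3, a chloride exchanger, and Reg4, a lectin, did not share this pattern, at 755 and 351 CPM in Degs2_KO replicate 3 and 826 and 969 CPM in WT replicate 1. Osr2, a transcription factor gene of the same list named after its values were seen, was at 0.0916, 0.0459, 72.7 and 0.0462 CPM in Degs2_KO replicates 1 to 4 and at 67.3, 0.0207, 0.0679 and 6.29 CPM in WT replicates 1 to 4. WT replicate 4, the third library for Slc10a2 and Slc51a, was the third for Osr2 too. Osr2 did not pass the filter on low counts and was not tested. Fxyd4 and Slc37a2 of the same list, also named after their values were seen, went the other way. Fxyd4 was at 0.508 CPM in Degs2_KO replicate 3 and 0.537 CPM in WT replicate 1, against 6.24 to 20.8 CPM elsewhere. Slc37a2 was at 32.1 and 85.8 CPM in the same libraries and at 208 to 554 CPM elsewhere.

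Genes of the small intestine differed among themselves. Of 26 tested, 9 were higher in both libraries than in the other 6, beside 17.8% of all genes, and 6 were lower, beside 16.6%. A ratio of at least 2 held for 5 of the 26, beside 1.02% of all genes: Cubn (9.64), Sis (9.42), Enpep (4.81), Ggt1 (4.74) and Amn (2.55), named after their values were seen. Sis, the gene of the brush border enzyme sucrase-isomaltase, was at 0.481, 0.573, 6.38 and 0.231 CPM in Degs2_KO replicates 1 to 4, against 13.9, 0.373, 0.453 and 0.677 CPM in WT replicates 1 to 4. Cubn, the gene of the vitamin B12 receptor cubilin, was at 0.229, 0.413, 6.29 and 0.231 CPM in Degs2_KO replicates 1 to 4 and at 8.34, 0.124, 0.226 and 0.652 CPM in WT replicates 1 to 4. These genes were low in general and shared their high libraries with Slc10a2. The summed level of the list overlapped between genotypes at 937 to 1360 CPM in Degs2_KO and 996 to 1430 CPM in WT. Fabp2, a fatty acid binding protein gene, was at 147, 125, 435 and 123 CPM in Degs2_KO replicates 1 to 4 and at 354, 69.0, 84.3 and 212 CPM in WT replicates 1 to 4. Clca4a was at 162 to 301 CPM in Degs2_KO and 156 to 333 CPM in WT, and the glucose transporter gene Slc5a1 at 185 to 198 CPM and 191 to 230 CPM. Other enterocyte genes, Apoa4, Lct and Fabp1, also named after their values were seen, stayed at or under 0.254 CPM in all 8 libraries. Of these, Fabp1 was highest in Degs2_KO replicate 3 (0.254 CPM, 11 reads) and WT replicate 1 (0.253 CPM, 8 reads), with at most 0.115 CPM elsewhere. Apoa4 and Lct were highest in Degs2_KO replicate 2. Gata4, a factor of the proximal small intestine, stayed at or under 1.71 CPM. Position along the colon is not a label of these samples, and its part in the levels of the bile acid genes was not tested.

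**Figure D5:**
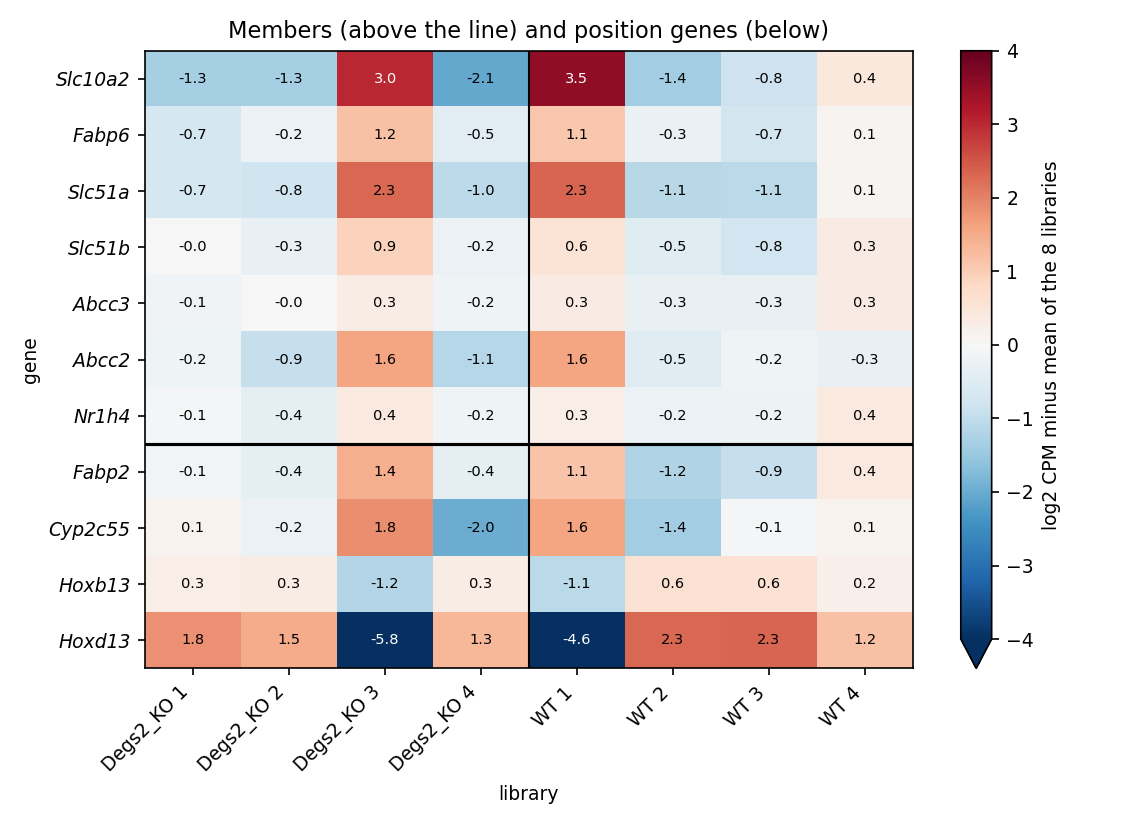
Log2 CPM minus the mean of the 8 libraries for the 7 tested bile acid genes (above the line) and 4 picked position genes (below it). Degs2_KO libraries are left of WT libraries, red is above the mean and blue below it. The picked genes are Fabp2, Cyp2c55, Hoxb13 and Hoxd13. Other position genes named in the text are not shown, and some of them, such as Slc26a3, Reg4, Car4 and Slc5a1, did not share their pattern. Slc10a2 and Slc51a are red where Hoxd13, at 0.300 and 0.695 CPM, is deepest blue.

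Markers of other cells also moved with these libraries in part. Of 10 tested T cell markers, 7 were higher in both than in the other 6, beside 17.8% of all tested genes. The list of 11 summed to 28.4 CPM in Degs2_KO replicate 3 (8.29 to 16.1 CPM in the other Degs2_KO libraries) and to 34.2 CPM in WT replicate 1 (4.05 to 19.0 CPM in the other WT libraries). Enteroendocrine markers summed to 388 CPM in Degs2_KO replicate 3 against 115 to 162 CPM in the other Degs2_KO libraries, and to 285 CPM in WT replicate 1 against 123 to 241 CPM in the other WT libraries. Of 15 tested enteroendocrine markers, 7 were higher in both, beside 17.8% of all tested genes. Fibroblast markers did not follow, at 10.5 and 10.9 CPM in these libraries and highest in WT replicate 4 at 50.7 CPM. Myeloid markers went the other way, at 27.2 and 29.6 CPM and between 36.9 and 47.0 CPM elsewhere. Of 9 tested myeloid markers, 5 were lower in both than in the other 6, beside 16.6% of all tested genes. Goblet cell markers summed to 6340 CPM in Degs2_KO replicate 3 and 30200 CPM in WT replicate 1, the lowest and the highest of all libraries. Endothelial, B cell, smooth muscle and neural lists each stayed at or under 13.1 CPM. The part of these cells in the levels of the bile acid genes was not tested.

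The genes whose profile over the 8 libraries lay nearest to that of Slc10a2 were Ces1g, Hoxb5, Hoxb6, Aldh1a1, Hkdc1 and Slc51a itself. Nearness was the root mean square difference of log2 CPM after centring, over 10977 named genes with a mean log2 CPM of at least 1; it was 0.33 for Ces1g, a carboxylesterase, and 0.689 for Slc51a. Ces1g was at 6.30, 8.94, 128 and 3.88 CPM in Degs2_KO replicates 1 to 4, against 155, 5.43, 6.84 and 12.9 CPM in WT replicates 1 to 4. The nearest to Slc51a were Aldh1a1, a retinaldehyde dehydrogenase (0.333), Gcnt4 (0.334), Ugt1a1, the bilirubin glucuronosyltransferase (0.338), Ntrk2 (0.340), Padi2 (0.355) and Car8 (0.357). Aldh1a1 was at 37.2, 33.3, 246 and 17.4 CPM in Degs2_KO replicates 1 to 4 and at 278, 19.9, 36.1 and 73.3 CPM in WT replicates 1 to 4. All of these were highest in Degs2_KO replicate 3 and WT replicate 1, so the nearness rests on those libraries. Within the set, the distance to Slc10a2 was 1.14 for Abcc2, 1.36 for Fabp6, 1.58 for Slc51b, 1.77 for Nr1h4 and 1.79 for Abcc3.

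Other genes of the pathway gave no call between genotypes. The genes of a list were measured in the same libraries, so the counts of higher and lower genes below are not independent and were not tested. Of 20 further transporters of bile acids, organic anions, sterols and drugs, 14 were tested, with 2 higher, 12 lower and 0 past edgeR's threshold (median log2 fold change -0.21, beside -0.007 over all genes). The 3 with the smallest p were Slco2a1, a prostaglandin transporter, at -0.34 ± 0.16, Abcb1b at -0.66 ± 0.37 and the sterol exporter gene Abcg5 at -0.84 ± 0.48. Slco2a1 was at 76.3, 94.5, 92.9 and 54.5 CPM in Degs2_KO replicates 1 to 4, against 96.4, 101, 94.4 and 109 CPM in WT replicates 1 to 4. Degs2_KO replicate 2 exceeded the lowest WT library by little, and the groups overlapped. Of the 14, only Abcc5 (2.75-fold) and Slco3a1 (2.16-fold), named after their values were seen, were at least 2-fold higher in both Degs2_KO replicate 3 and WT replicate 1 than in each other library. Over all tested genes this held for 1.02%. Slc10a1, the bile acid uptake transporter of liver, stayed at or under 0.115 CPM.

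Of 22 nuclear receptors and transcription factors linked to bile acid genes, 20 were tested. Of these, 1 was higher, 19 were lower and 0 passed (median -0.07, beside -0.007 over all genes). Hnf4g, a relative of HNF4A, had a log2 fold change of -0.24 ± 0.10 with an unadjusted p of 0.0477 by edgeR's quasi-likelihood test (adjusted p = 1). The oxysterol receptor genes Nr1h3 and Nr1h2 had values of -0.22 ± 0.20 and -0.07 ± 0.07. Hnf4g was at 40.0, 32.0, 29.4 and 35.1 CPM in Degs2_KO replicates 1 to 4 and at 39.2, 37.4, 42 and 42.5 CPM in WT replicates 1 to 4, so 1 Degs2_KO library lay within the WT range. No gene of this list reached a 2-fold excess in both Degs2_KO replicate 3 and WT replicate 1.

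Of 6 membrane receptor genes, 5 were tested, with 2 higher, 3 lower and 0 past the threshold. Chrm3, a muscarinic receptor that bile acids can bind, had a log2 fold change of 0.62 ± 0.43, S1pr2, a receptor of conjugated bile acids, -0.11 ± 0.22, and Klb, the co-receptor of FGF15, -0.27 ± 0.56. Klb ran against Slc10a2, at 15.9, 11.3, 2.73 and 8.73 CPM in Degs2_KO replicates 1 to 4 and at 3.89, 14.0, 18.8 and 9.80 CPM in WT replicates 1 to 4. Malrd1, a gene that in mice affects how much FGF15 the gut makes, was singled out after its values were seen. It was at 4.28, 2.94, 24.4 and 3.16 CPM in Degs2_KO replicates 1 to 4, against 25.8, 1.41, 2.97 and 4.19 CPM in WT replicates 1 to 4, with a log2 fold change of 0.02 ± 1.0.

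Of 30 genes of bile acid synthesis and modification, 18 were tested, with 8 higher, 10 lower and 0 past the threshold (median -0.01). Cyp3a13, a cytochrome P450 gene, had a log2 fold change of -0.25 ± 0.18, Cyp27a1, the sterol 27-hydroxylase, -0.46 ± 0.34 and Amacr, a racemase of side chain oxidation, -0.10 ± 0.13. Cyp27a1 was at 13.1, 11.0, 7.44 and 8.87 CPM in Degs2_KO replicates 1 to 4 and at 5.62, 17.0, 19.1 and 14.1 CPM in WT replicates 1 to 4. Of the 18, 4 were at least 2-fold higher in both Degs2_KO replicate 3 and WT replicate 1 than in each other library. Over all tested genes this held for 1.02%. The 4 were Cyp2c55, which is on the proximal colon list too, Acox2, Ugt1a1 and Ugt2b36, named after their values were seen. Of 15 genes listed as possible FXR targets outside the set, 13 were tested, with 6 higher, 7 lower and 0 past the threshold (median -0.02). The smallest p-values belonged to Vldlr, a lipoprotein receptor (0.22 ± 0.15), Dhrs9, a retinoid dehydrogenase (0.25 ± 0.18), and Asah2, the neutral ceramidase (-0.10 ± 0.09). None of these 13 reached a 2-fold excess in both of those libraries.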

How the data were processed

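Per the labels' protocols, RNA was extracted from EDTA-released cells of the distal colon that had passed a cell strainer. Per the submitters' processing notes, cutadapt 1.9, TopHat2 2.0.10, Cufflinks 2.1.1, Cuffdiff and the mm10 build were used; the order of steps, the annotation and the strand setting were not stated there. The authors deposited estimated counts per gene, scaled by 1 factor per library, per the file headers and values: between 96.9% and 97.2% of values up to 100 became whole, within 0.02, when divided by the library's step, which gave the reads quoted.

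Estimated counts were rounded, 47 genes with a failed or overloaded estimate in any library were left out, and 16132 genes passed filterByExpr (minimum count 10, total 15). Genotypes were tested in edgeR 4.0.16 under R 4.3.3 (TMM, 2-sided quasi-likelihood F test, genotype as the only term, Benjamini-Hochberg adjustment at 0.05). CPM uses the same TMM totals; log2 CPM used a prior count of 2. Levels per kb divide CPM by the union of GENCODE M21 exons on GRCm38, the assembly called mm10. The code was tested on simulated data. Of 10 members, 8 had a promoter entry in RefSeq.

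The members and gene lists were chosen with earlier results of these data known. From each pathway list the text names genes past the threshold or else the 3 with the smallest p; from each position list the 3 with the highest mean, with Hoxd13, Hoxb13 and Gata4; and the 6 nearest profiles of Slc10a2 and Slc51a. Alternatives were DESeq2 1.42.0, limma 3.58.1, other size factors and filters, a replicate block, undone scaling and left-out libraries. Intervals and limits cover counting error only where they rest on reads.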

Additional observations from a re-analysis of the deposited data

Results flagged for a closer look

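The bile acid genes and the genes with the nearest profiles were chosen for their levels in these libraries, so they were not examined for outlying values. For Degs2 and the other named genes, a value was singled out within a group of 4 libraries when its gap to the nearest other library, divided by the group's range, exceeded Dixon's 95% critical value; chance does this in about 1 in 20 groups. In all, 28 genes were examined and 5 values were singled out. Fabp2 stood above the other Degs2_KO libraries in replicate 3 (435 CPM) and Hoxb13 below them (91.0 CPM); Hoxb13 had been named with its levels here known. Slc5a1 stood below the others in Degs2_KO replicate 4 (185 CPM). In WT, Nr1h3 stood below the others in replicate 1 (9.26 CPM) and Dhrs9 above them in replicate 4 (33.4 CPM).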

How the results depend on the processing

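Over 17 alternatives to the comparison of Degs2_KO with WT, the count of genes past the threshold stayed at 0 except with DESeq2, which called 2 of 28352 genes. None of the 7 tested members passed in any of them. Degs2 kept its direction in all 17 and passed with DESeq2 alone (log2 fold change -1.06, adjusted p 3.32e-06). Other normalizations, filters, tests, the replicate block and undone scaling changed no member's sign; Abcc2 was not tested under the stricter filter. With 1 library left out, log2 fold changes ranged from -3.32 to 1.6 for Slc10a2, -1.67 to 1.3 for Slc51a, -0.19 to 0.42 for Slc51b, -0.67 to 0.43 for Fabp6, -0.28 to 0.0041 for Nr1h4, -1.12 to 0.6 for Abcc2 and -0.16 to 0.06 for Abcc3. Without WT replicate 1 the signs of 5 turned to positive (Slc10a2, Slc51a, Fabp6, Abcc2 and Abcc3). The number of genes under the unadjusted threshold, 183 with all libraries, reached 782 when WT replicate 1 was left out, 298 and 292 when Degs2_KO replicate 1 or Degs2_KO replicate 3 was, 650 when both standing-apart libraries were, and 401 with no filter; the cause was not tested. The replicate block gave 0 calls, 99 genes under the unadjusted threshold and -1.06 for Slc10a2. The deviations of same-numbered libraries correlated at -0.425, 0.444, -0.56 and -0.102 for numbers 1 to 4; only number 2 was positive, so the numbers were not taken to pair the libraries, and a shared batch behind a number was not tested. Depth limits Fgf15, Nr0b2 and Gpbar1, with 7, 8 and 22 reads in all 8 libraries together.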

Other observations

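Several enzymes of bile acid synthesis in the liver were at or near the limit of detection in these colon libraries, and others were not. Cyp7a1, the rate-limiting enzyme of the classic pathway, had 0 reads in every Degs2_KO and every WT library. Cyp8b1, the sterol 12-hydroxylase, Akr1d1, a reductase of the sterol ring, and Slc27a5, a bile acid CoA ligase, had at most 3 reads in any library. Other enzymes of the synthesis pathway were present: Hsd3b7, a sterol dehydrogenase, was at 24.4 to 34.9 CPM in Degs2_KO and 23.2 to 35.1 CPM in WT, and Cyp39a1, an oxysterol hydroxylase, at 24.3 to 29.4 CPM in Degs2_KO and 22.6 to 30.6 CPM in WT. Enzymes shared with peroxisomal fat oxidation were present too: Scp2, a thiolase, was at 147 to 204 CPM in Degs2_KO and 151 to 181 CPM in WT, and Hsd17b4, a multifunctional oxidation enzyme, at 76.1 to 120 CPM in Degs2_KO and 75.9 to 106 CPM in WT. Scp2 and Hsd17b4 had their highest values in Degs2_KO replicate 3 and WT replicate 1, as did 17.8% of all tested genes. The lower of these libraries was only 1.09-fold above the highest of the other 6 for Scp2 and 1.29-fold for Hsd17b4. These genes were picked for this account after their values were seen.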
